A study of Homo sapiens with 9 samples.

Results

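Metallothionein genes, the zinc exporter gene SLC30A1 and MTF1, the gene of the transcription factor that senses zinc, were followed in MDA-MB-231 breast cancer cells incubated with or without small extracellular vesicles (sEV). The set comprised 8 of the 60719 genes in the deposited expression table. Its members are the metallothionein genes MT2A, MT1X, MT1E, MT1F, MT1G and MT1M together with SLC30A1 and MTF1, each found by matching its Ensembl identifier to its symbol.

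MDA-MB-231 is an established wild-type human line of triple-negative breast cancer. Recipient cells of that line were kept for 72 h in 5% vesicle-depleted medium without vesicles (No sEV), with vesicles from control donors (Cont sEV) or with vesicles from donors in therapy-induced senescence (TIS sEV). Donors were MDA-MB-231 cells as well, given either the solvent DMSO or the microtubule poison nocodazole at 100 ng/ml for 72 h, then moved to drug-free, vesicle-depleted medium for another 72 h, from which the vesicles were isolated by centrifugation. Each group held 3 libraries of total RNA. Whether the libraries of a group came from separate cultures is not stated. The p-values therefore rest on a spread within groups, pooled over all 9 libraries, that may be only technical. Senescence of the donors and any other effect of nocodazole on their vesicles cannot be told apart in this design, and 1 cell line was used.

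Values are gene-level TPM, a length-corrected share of the transcripts of a library in which all genes sum to 1000000, so that the read depth is unknown. Of all genes, 21292 to 21975 per library were above 0. Of the genes listed as markers of the line, all 6 were present, with VIM at 2206 to 2299 TPM and CD44 at 428 to 514 TPM. Among luminal epithelial genes the hormone receptor genes ESR1 and PGR and the cadherin gene CDH1 were at no more than 0.220, 0.0502 and 0.577 TPM, but KRT8 (317 to 348 TPM), KRT18 (406 to 431 TPM), EPCAM (21.1 to 25.9 TPM) and GATA3 (2.63 to 4.54 TPM) were present. Markers of other cell types were likewise mixed. Of immune genes, CD3E and PTPRC reached at most 0.0387 and 1.41 TPM, while CD68 was at 146 to 160 TPM and CD14 at 2.13 to 3.84 TPM. Of fibroblast genes, COL1A2, DCN and LUM reached at most 0.244, 0.152 and 0.186 TPM, while COL1A1 was at 7.07 to 9.26 TPM and PDGFRB at 1.09 to 2.597 TPM. Of endothelial genes, VWF and CDH5 reached at most 0.0561 and 0.182 TPM, while KDR was at 3.85 to 4.73 TPM and PECAM1 at 1.35 to 2.16 TPM. The 3 groups did not overlap for PECAM1, at 1.45 ± 0.111 TPM in TIS sEV, 2.07 ± 0.0764 in Cont sEV and 1.83 ± 0.0481 in No sEV (SD, n = 3), with a log2 fold change of -0.33 for TIS sEV against Cont sEV (limma adjusted p = 0.291). Of all tested genes, 4.47% were lower without overlap in TIS sEV than in Cont sEV, and 2.77% than in No sEV. KDR was at 0.01 for TIS sEV against Cont sEV (limma adjusted p = 0.977), with overlapping groups. VIM and CD44 were higher without overlap in TIS sEV than in Cont sEV and in No sEV, as held for 10.9% and 11.3% of all tested genes. The part of these markers in the differences described here was not tested. In bulk RNA of this kind a lower level can come from fewer expressing cells or from less RNA per cell, which cannot be told apart.

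Metallothioneins are small cytosolic proteins that bind zinc and copper, and in poisoning cadmium, through clusters of cysteine residues. When free zinc rises, MTF1 binds metal response elements in the promoters of metallothionein genes and of SLC30A1, whose product ZnT1 carries zinc out of the cell across the plasma membrane. Metallothionein genes also respond to glucocorticoids and to oxidative stress. MTF1 itself is controlled mainly through zinc binding and movement into the nucleus, so its transcript is not a direct readout of its activity.

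The coding sequences of the family show how alike its members are. Those of the 3 abundant genes and of MT1M, which is listed at 0, are given here from GENCODE 29 transcripts, 5′ to 3′, with the cysteine codons TGC and TGT in capitals.
MT2A: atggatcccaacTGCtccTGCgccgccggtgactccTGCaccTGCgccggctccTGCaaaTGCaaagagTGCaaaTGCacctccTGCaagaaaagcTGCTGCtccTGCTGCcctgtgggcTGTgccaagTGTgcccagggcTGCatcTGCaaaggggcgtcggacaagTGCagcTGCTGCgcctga
MT1X: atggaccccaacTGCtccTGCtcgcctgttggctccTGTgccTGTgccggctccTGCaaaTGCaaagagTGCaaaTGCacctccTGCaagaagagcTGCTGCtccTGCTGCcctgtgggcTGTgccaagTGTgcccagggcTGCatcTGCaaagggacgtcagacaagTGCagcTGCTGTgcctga
MT1E: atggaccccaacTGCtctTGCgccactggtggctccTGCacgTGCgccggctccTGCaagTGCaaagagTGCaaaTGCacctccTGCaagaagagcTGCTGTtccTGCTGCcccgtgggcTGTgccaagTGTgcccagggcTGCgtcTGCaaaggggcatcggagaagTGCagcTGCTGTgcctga
MT1M: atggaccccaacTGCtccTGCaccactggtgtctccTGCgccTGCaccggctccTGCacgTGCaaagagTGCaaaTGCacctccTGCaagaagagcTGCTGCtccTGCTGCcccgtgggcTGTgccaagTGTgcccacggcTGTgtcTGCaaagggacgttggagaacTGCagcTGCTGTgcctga
Each of these 4 sequences is 186 bases long, with 20 cysteine codons among 61 (32.8%), spread over 3 coding exons. The cysteine codons of MT1F, MT1G and MT1A, another family gene, also number 20. Between MT2A and MT1X 172 of 186 bases were identical (92.5%), with a longest identical run of 63 bases. MT2A and MT1E shared 172 bases as well, but their longest identical run was 32 bases. MT1E and MT1M were identical at 172 bases (92.5%), MT1X and MT1E at 169 (90.9%), and MT1X and MT1G held an identical run of 96 bases.

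Over whole transcripts, sharing was counted as exact words of 31 bases, a measure that cannot be set against the identities above. Of the distinct 31-base words of each gene's annotated transcripts, 7.2% in MT2A, 19.8% in MT1X, 15.6% in MT1E, 3.2% in MT1F, 23.3% in MT1G and 23.8% in MT1M also occurred in another gene. MT1X shared 16% of its words with AC026461.1, a noncoding transcript that overlaps it, and 4.2% with MT1G. MT1E shared most with MT1M (9% of its words), and MT2A with the processed pseudogene MT2P1 (4.4%). SLC30A1 shared 0% and MTF1 1.9%. Separate TPM values of the metallothionein genes therefore carry the uncertainty of reads that fit more than 1 of them.

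In the genome the 6 metallothionein members lie within 1 cluster on chromosome 16. On GRCh38, MT2A (ENSG00000125148.7) lies at chr16:56608199-56609497, MT1E (ENSG00000169715.15) at chr16:56625475-56627112, MT1M (ENSG00000205364.4) at chr16:56632233-56633986 and MT1F (ENSG00000198417.7) at chr16:56657694-56660698. MT1G (ENSG00000125144.14), on the opposite strand, lies at chr16:56666731-56668065, and MT1X (ENSG00000187193.9) at chr16:56682424-56684196. SLC30A1 (ENSG00000170385.10) and MTF1 (ENSG00000188786.10) are on chromosome 1, at chr1:211571568-211578742 and chr1:37809567-37859620. All 8 are annotated as protein-coding genes. The identifiers in brackets are those of the expression table. The positions are those of GENCODE gene models, in which all 8 identifiers carry an earlier version number. Positions in the authors' annotation may therefore differ from those given here.

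Expression in the cluster was concentrated in a few genes. Averaged over the 9 libraries, MT2A stood at 4713 TPM, the 9th highest mean of all genes in the table. MT1X followed at 731 TPM (188th) and MT1E at 203 TPM (759th). TPM divides by transcript length, so these levels can be compared between genes, within the uncertainty of shared reads given above. The ranges of MT2A (4444 to 5049 TPM), MT1X (691 to 777 TPM) and MT1E (178 to 219.97 TPM) over the 9 libraries did not meet. MTF1 at 7.49 TPM and SLC30A1 at 5.90 TPM came next, with ranges of 6.90 to 8.93 and 5.46 to 6.58 TPM that also did not meet. MT1F (0.629 TPM) and MT1G (0.216 TPM) were near the lower limit, with overlapping ranges, and MT1M was listed at 0 in all libraries.

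Of 16 family genes and pseudogenes in the cluster, MT1A was the only other one above 1 TPM, at 7.67 TPM. The plot by position along the cluster shows that level did not follow neighbourhood: MT1E at 17.3 kb from the start of MT2A was abundant, MT1M at 24.0 kb was listed at 0, and MT1X at 74.2 kb was high again. MT1H, MT1IP, MT1DP, MT1CP, MT1JP and MT4 were listed at 0 as well.

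**Figure D1:**
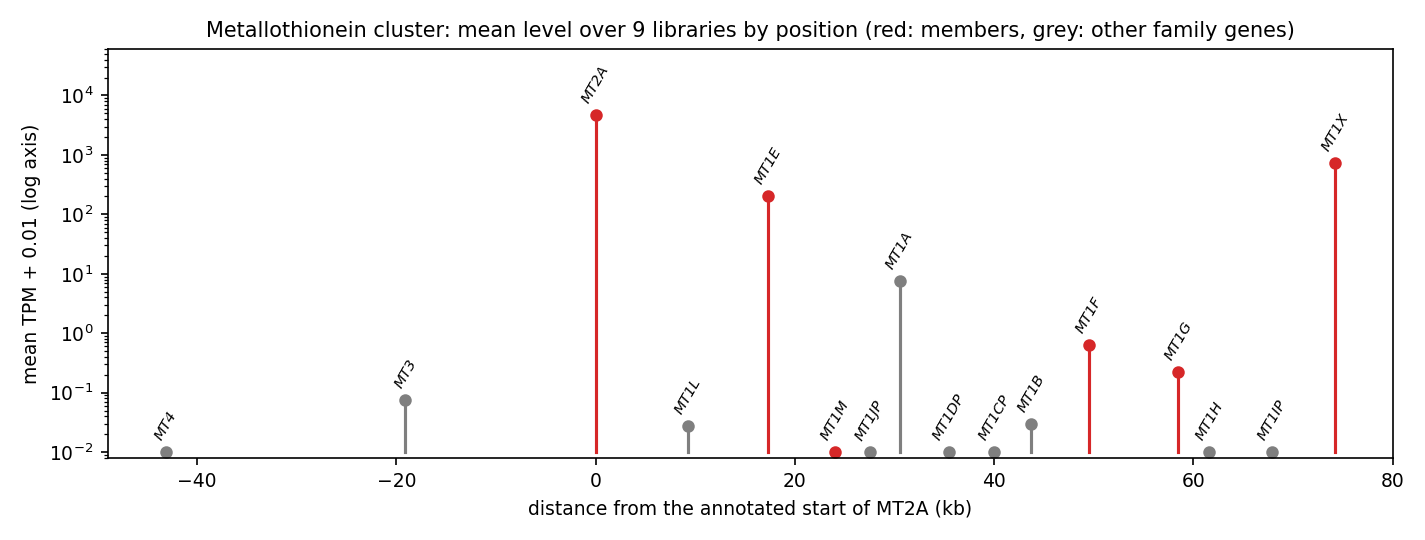
Mean TPM over the 9 libraries, plus 0.01 so that zeros can be drawn on a log axis, against the distance from the annotated start of MT2A in kb, for the 16 metallothionein genes and pseudogenes of the cluster. Members are red and other family genes grey: MT2A, MT1E and MT1X rise above 100 TPM, MT1A lies at 7.67 TPM and the others lie below 1 TPM.

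Promoter sequences were available for 4 of the 8 members (MT2A, MT1X, SLC30A1 and MTF1) and for 3 other metallothionein genes, from RefSeq on GRCh38.p14. They were searched over the 250 bases before the start site, on both strands, for the 2 forms of the metal response element core, TGCACNC and TGCGCNC, where N is any base. Matches are shown in capitals, because these elements are what links MTF1 to the genes measured here. Those on the other strand appear as the reverse complement, as in GAGTGCA. For MT1X the bases before its GENCODE first exon are printed. The GENCODE gene model of SLC30A1 starts at chr1:211578742, further downstream than its RefSeq start site. Bases just before that GENCODE start were therefore not searched. For MT2A all 250 bases before the RefSeq start site lie inside an exon of the longer GENCODE gene model, so its window is upstream by RefSeq and transcribed by GENCODE, and only 30 bases are printed.
MT2A, chr16:56608424-56608453, plus strand: agccgggTGCGCCCggcccagTGCGCGCgg
MT1X, chr16:56682220-56682423, plus strand: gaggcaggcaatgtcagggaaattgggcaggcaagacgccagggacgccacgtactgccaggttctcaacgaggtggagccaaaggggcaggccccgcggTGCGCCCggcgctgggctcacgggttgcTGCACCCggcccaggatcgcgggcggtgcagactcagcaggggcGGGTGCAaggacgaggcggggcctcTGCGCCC
MT1H, chr16:56669564-56669813, plus strand: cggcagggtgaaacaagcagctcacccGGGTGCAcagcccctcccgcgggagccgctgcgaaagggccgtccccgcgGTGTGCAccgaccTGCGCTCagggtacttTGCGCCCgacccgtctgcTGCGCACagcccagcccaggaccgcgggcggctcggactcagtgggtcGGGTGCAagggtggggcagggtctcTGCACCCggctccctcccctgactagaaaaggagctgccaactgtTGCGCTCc
SLC30A1, chr1:211579162-211579411, minus strand: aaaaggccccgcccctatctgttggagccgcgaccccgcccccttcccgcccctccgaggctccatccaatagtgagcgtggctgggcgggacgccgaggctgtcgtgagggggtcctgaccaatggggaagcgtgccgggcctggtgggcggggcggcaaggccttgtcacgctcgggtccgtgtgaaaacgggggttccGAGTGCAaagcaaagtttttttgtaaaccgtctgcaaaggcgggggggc
In the whole window MT2A held 7 matches, 5 of TGCACNC and 2 of TGCGCNC, and MT1X held 4, with 2 of each. SLC30A1 held 1 match, at -49 to -43 from its start site, and MTF1 held 0. At least 7 matches were found in 0.031% of all 35116 promoters, at least 4 in 0.37% and at least 1 in 24.829%. The promoter of MT1H held 8 matches, found in 0.017% of promoters, although MT1H was listed at 0 in every library. SLC30A1, with 1 match in its RefSeq window, was at 5.90 TPM. Number of matches in these windows and level thus did not rank the genes alike here. MT1B and MT4 held 3 matches each. None of the matches overlapped another.

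An antioxidant response element core, TGACNNNGC, occurred once each in the windows of MT2A, MT1X and SLC30A1, as in 10.91% of promoters. A full consensus glucocorticoid response element occurred in 1 of the 35116 promoters and in 0 of the 4 members' windows, which says only that these letters are not in this window.

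**Figure D2:**
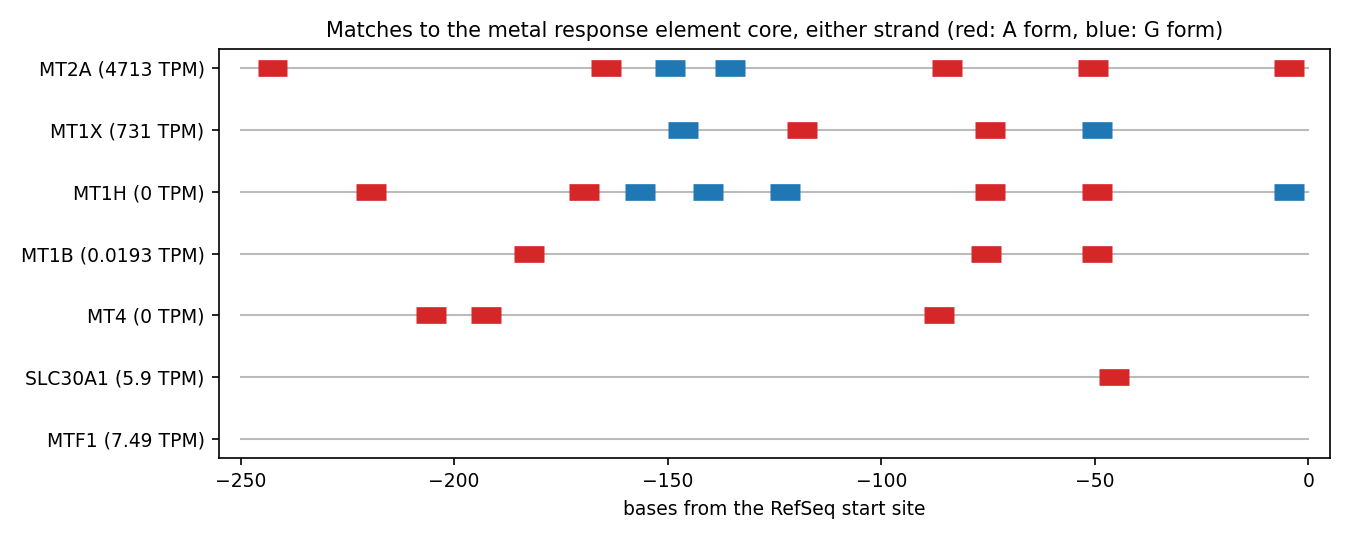
Matches to TGCACNC (red, A form) and TGCGCNC (blue, G form) on either strand within 250 bases before the RefSeq start site, drawn to scale for the 4 members and 3 other metallothionein genes with a promoter entry, with the mean TPM of each gene in brackets. MT2A has 7 blocks and MT1H has 8, while SLC30A1 has 1 and MTF1 has 0.

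MT2A, the main metallothionein of the line, was at similar levels in the 3 groups. In No sEV its values were 5049, 4660.2 and 4747 TPM, in Cont sEV 4632, 4715 and 4752 TPM, and in TIS sEV 4960.5, 4459.8 and 4444 TPM (replicates 1 to 3). Replicates 2 and 3 of TIS sEV were the lowest of all libraries, but replicate 1 was the second highest, so that all 3 groups overlapped. The group means were 4819 ± 204 TPM (SD, n = 3) in No sEV, 4699.6 ± 61.8 in Cont sEV and 4621 ± 294 in TIS sEV. The log2 fold change, computed on log2(TPM + 1), was -0.03 (SE 0.04) for TIS sEV against Cont sEV, with limma's adjusted p = 0.893. Its 95% interval ran from -0.12 to 0.07. Against No sEV the fold change was -0.06 with TIS sEV (SE 0.04, limma adjusted p = 0.755) and -0.04 with Cont sEV (SE 0.04, limma adjusted p = 0.953). Single libraries moved these values. Without TIS sEV replicate 1 the difference of TIS sEV from Cont sEV was -0.0781, and without TIS sEV replicate 3 it was 0.0013. The difference of TIS sEV from No sEV was -0.1135 without TIS sEV replicate 1 and -0.0273 without No sEV replicate 1. That of Cont sEV from No sEV was -0.0591 without No sEV replicate 2 and -0.0013 without No sEV replicate 1.

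MT1X showed the smallest spread and the clearest order of the groups. Its values were 755, 763 and 777 TPM in No sEV, 710.3, 745 and 728 TPM in Cont sEV, and 717, 695 and 691 TPM in TIS sEV. All 6 libraries with vesicles lay below all 3 without. Over all tested genes, 2.77% with TIS sEV and 4.47% with Cont sEV were lower than No sEV without overlap. The share with both patterns at once was not computed. For MT1X, TIS sEV and Cont sEV overlapped through TIS sEV replicate 1 and Cont sEV replicate 1. The means were 765 ± 11.2, 728 ± 17.1 and 701 ± 13.96 TPM (SD, n = 3 each). For TIS sEV against No sEV the log2 fold change was -0.13 (SE 0.03), with an unadjusted p = 0.000599, the 29th smallest of 13879 genes, and a limma adjusted p = 0.282. The difference did not pass the threshold of 0.05. Its 95% interval of -0.18 to -0.07 is not adjusted for the number of genes. Cont sEV against No sEV gave -0.07 (SE 0.03, limma adjusted p = 0.789), and TIS sEV against Cont sEV gave -0.05 (SE 0.03, limma adjusted p = 0.527).

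MT1E had its lowest mean with TIS sEV. It stood at 217, 215 and 197 TPM in No sEV, 196, 218 and 219.97 TPM in Cont sEV, and 202, 178 and 179.6 TPM in TIS sEV. As for MT2A, TIS sEV replicate 1 lay apart from replicates 2 and 3 and inside the range of the other groups. The means were 209 ± 10.9 TPM in No sEV, 212 ± 13.1 in Cont sEV and 187 ± 13.7 in TIS sEV (SD, n = 3). The log2 fold change of -0.18 against Cont sEV (SE 0.06, 95% interval -0.32 to -0.04) was the lowest among the members in any comparison and did not pass (unadjusted p = 0.0151, limma adjusted p = 0.368). Against No sEV it was -0.17 (SE 0.06, limma adjusted p = 0.580). Cont sEV and No sEV differed by 0.01 (SE 0.06, limma adjusted p = 0.987).

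**Figure D3:**
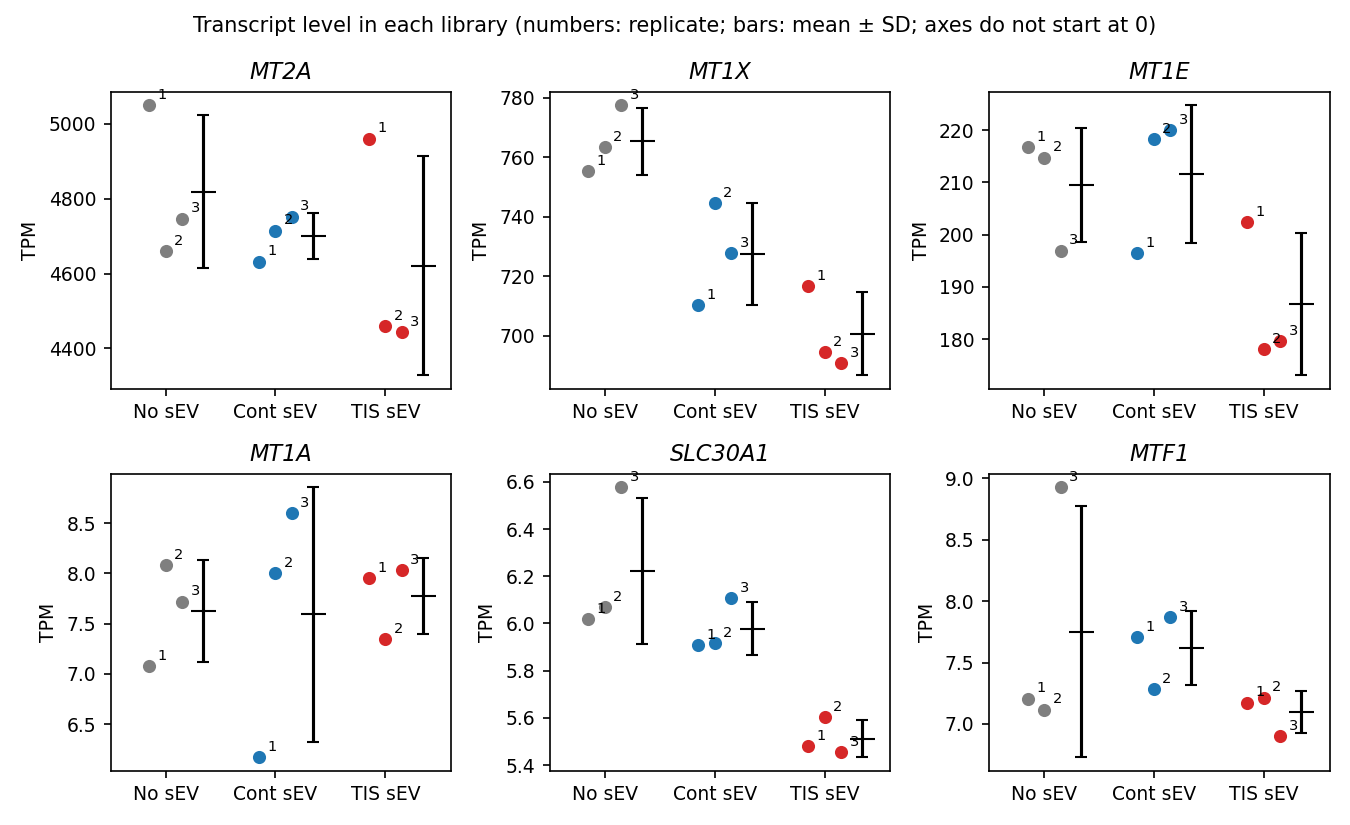
TPM of 5 members and of MT1A in each library, with the replicate number beside each point and the group mean ± SD (n = 3) as a bar to its right; the axes do not start at 0. All MT1X points with vesicles lie below the No sEV points, and all SLC30A1 points of TIS sEV (5.46 to 5.60 TPM) lie below the other 6.

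The sum of the 6 metallothionein members, nearly all of it MT2A, MT1X and MT1E, gives the overall metallothionein level. It was 6022, 5639 and 5722 TPM in No sEV, 5539, 5679 and 5701 TPM in Cont sEV, and 5880.4, 5333 and 5315 TPM in TIS sEV. The means of 5795 ± 202, 5640 ± 87.8 and 5509 ± 321 TPM overlapped within their spread. Metallothionein transcripts made up 0.531% to 0.602% of the summed TPM of a library. Within that sum MT2A held 83.1 ± 0.625% in No sEV, 83.3 ± 0.305% in Cont sEV and 83.9 ± 0.427% in TIS sEV.

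The ratio of MT1E to MT2A, which does not depend on how a library is scaled, was singled out after its values were seen and was not tested. It was 4.04 ± 0.0445% in TIS sEV, 4.50 ± 0.224% in Cont sEV and 4.35 ± 0.235% in No sEV (SD, n = 3). The 3 TIS sEV libraries (3.99% to 4.08%) lay below the other 6 (4.15% to 4.63%). The ratio of MT1X to MT2A overlapped between the groups, at 15.2 ± 0.643% in TIS sEV, 15.5 ± 0.269% in Cont sEV and 15.9 ± 0.821% in No sEV.

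SLC30A1, the zinc exporter gene and a known MTF1 target, was low but measured evenly. Its values were 6.02, 6.07 and 6.58 TPM in No sEV, 5.91, 5.92 and 6.11 TPM in Cont sEV, and 5.48, 5.60 and 5.46 TPM in TIS sEV. The TIS sEV libraries lay below all others, while Cont sEV and No sEV overlapped. Over all tested genes, TIS sEV was lower without overlap than Cont sEV for 4.47% and than No sEV for 2.77%. The means were 6.22 ± 0.309, 5.98 ± 0.111 and 5.51 ± 0.0786 TPM (SD, n = 3). The log2 fold change was -0.10 (SE 0.07) against Cont sEV and -0.15 (SE 0.07) against No sEV, with limma adjusted p = 0.673 and 0.627. Neither passed the threshold. Cont sEV against No sEV gave -0.05 (SE 0.07, limma adjusted p = 0.958), and -0.0136 without No sEV replicate 3.

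MTF1, the zinc sensor, was at 7.21, 7.12 and 8.93 TPM in No sEV, 7.71, 7.28 and 7.87 TPM in Cont sEV, and 7.17, 7.21 and 6.90 TPM in TIS sEV. TIS sEV lay below Cont sEV without overlap, by 0.09 on the log2 scale (log2 fold change -0.09, SE 0.09, limma adjusted p = 0.788). No sEV replicate 3 was the highest of all libraries and set most of the difference from No sEV: the log2 fold change of TIS sEV against No sEV was -0.11 (SE 0.09, limma adjusted p = 0.783), and -0.0116 without that library.

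The other 3 members did not reach 1 TPM in 3 libraries and were not tested. MT1F ranged from 0.0583 to 1.43 TPM over the 9 libraries and was above 1 TPM in Cont sEV replicate 2 alone. MT1G ranged from 0, in TIS sEV replicate 1, to 0.502 TPM. MT1M was listed at 0 throughout. With no filter on low values, MT1F and MT1G could be fitted and had adjusted p-values of 0.8104 to 1 in the 3 comparisons (limma).

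For the comparison of vesicle sources, all 5 tested members had lower means in TIS sEV, but 0 of the 5 passed the test. Over all 13879 tested genes 13 passed, or 0.0937% (limma, Benjamini-Hochberg adjusted p under 0.05). Lower means were found for 40.4% of all tested genes. The median log2 fold change of the 5 was -0.09, against 0.02 over all genes. An unadjusted p under 0.05 was reached by 1 of the 5, MT1E, where 10.0% of all genes had one, 2.93% on the lower side. SLC30A1 and MTF1 were the 2 members whose groups did not overlap, both lower with TIS sEV, as held for 4.47% of all tested genes. The members were chosen with earlier results of these data known. The shares of all genes, here and in the other comparisons, therefore give scale and are no test of the set.

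Against No sEV, TIS sEV gave lower means for all 5 tested members, as it did for 33.3% of all genes. Of the 5, 0 passed, where 1 of all genes did (0.00721%). Their median log2 fold change was -0.13 against 0.03 over all genes. MT1X and MT1E had an unadjusted p under 0.05, both lower, compared with 7.97% of all genes in either direction and 1.64% lower. MT1X and SLC30A1 were lower without overlap between the groups, a pattern of 2.77% of all genes. The TIS sEV libraries enter both comparisons, so these 2 sets of values are not independent.

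Cont sEV and No sEV were set side by side for the effect of control vesicles alone. Of the 5, 4 had a lower mean, as had 43.5% of all genes, and 0 passed, as for all genes (0%). MT1X had an unadjusted p of 0.0177, where 6.03% of all genes were under 0.05 and 2.50% were so on the lower side. The median log2 fold change was -0.04 against 0.01 over all genes. MT1X alone was lower without overlap, as were 4.47% of all genes.

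**Figure D4:**
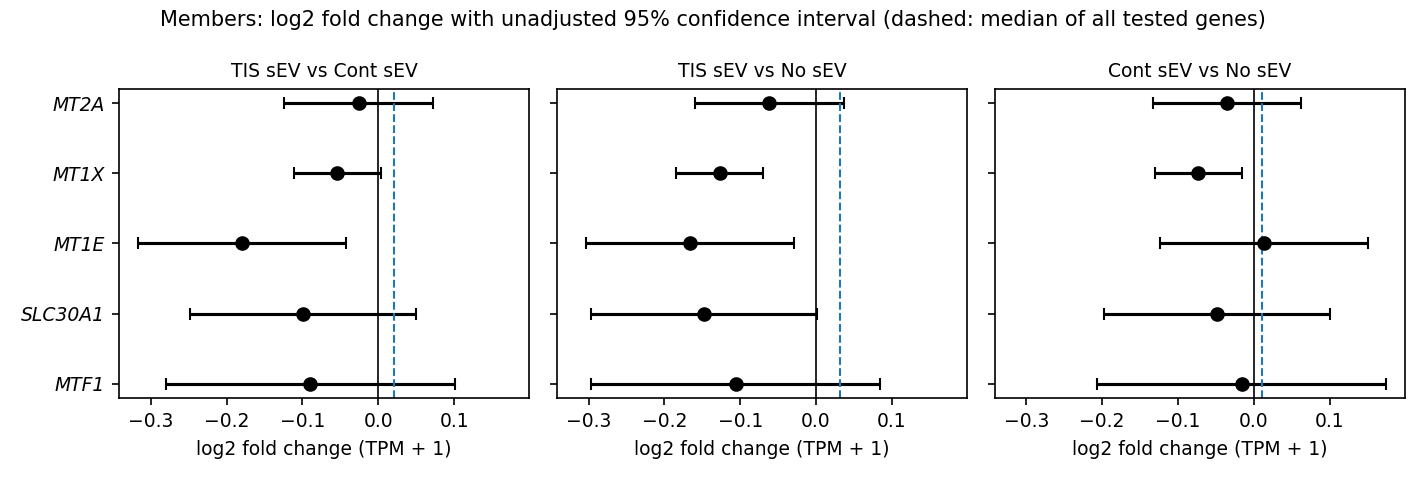
Log2 fold change on log2(TPM + 1) of the 5 tested members in the 3 comparisons, with 95% confidence intervals that are not adjusted for the number of genes; the dashed line is the median of all tested genes. Every point of the 2 comparisons of TIS sEV lies below 0, from -0.18 to -0.03, and none passed the adjusted threshold.

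The share of all mitochondrially encoded transcripts varied between libraries, and because TPM sums to a fixed total it scales the other genes. With TIS sEV it was 2.07% to 2.52% of the summed TPM, below the 2.58% to 3.39% with Cont sEV. No sEV, at 2.47% to 2.92%, overlapped both. With mitochondrially encoded genes left out and the rest rescaled, the log2 fold change of MT1X in TIS sEV vs No sEV was -0.13, as before, and 0 members passed. Rescaling by median ratios, which brought the median of all genes to -0.000249 in TIS sEV vs No sEV, put MT1X at -0.16 there (limma adjusted p = 0.310). MT1X transcripts are short, with a median annotated length of 543 bases, at the 4.99th percentile of tested genes, while those of SLC30A1, at 5474 bases, are at the 98.3rd. With trends on length and GC content removed from each library, MT1X was at -0.17 and SLC30A1 at -0.18 in TIS sEV vs No sEV.

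Beyond the members, the wider metallothionein family and the zinc transporters gave 0 passing genes in each comparison. Of 15 other metallothionein genes and pseudogenes, 3 were tested. MT1A, a functional member of the family, was at 7.63 ± 0.509 TPM in No sEV, 7.59 ± 1.26 in Cont sEV and 7.78 ± 0.374 in TIS sEV (SD, n = 3), with a log2 fold change of 0.04 for TIS sEV against Cont sEV (limma adjusted p = 0.933). The pseudogenes MT2P1 and MT1XP1 ranged from 0.852 to 4.90 TPM and from 0 to 4.14 TPM. Both varied widely within groups.

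Other zinc exporters, of which 5 of 10 were tested, had median log2 fold changes of 0.03, 0.00 and -0.00 in TIS sEV vs Cont sEV, TIS sEV vs No sEV and Cont sEV vs No sEV. SLC30A7, which loads zinc into the Golgi, lay at -0.06 in TIS sEV vs Cont sEV, with no overlap of the groups (limma adjusted p = 0.808). The zinc importers of the SLC39 family, 11 of 14 tested, had medians of 0.02, 0.02 and 0.00. SLC39A6, an importer at the plasma membrane, had the smallest p among them against Cont sEV (-0.10, limma adjusted p = 0.595). None of the 11 importers had an unadjusted p under 0.05 in any comparison.

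Among zinc chaperones and enzymes, 6 of 11 were tested and 0 passed, with medians of 0.07, 0.10 and 0.03. ZNG1A, which delivers zinc to the enzyme METAP1, had a log2 fold change of 0.17 for TIS sEV against No sEV (SE 0.04, unadjusted p = 0.00187, limma adjusted p = 0.347), and its groups did not overlap. ZNG1C stood 0.29 above Cont sEV with TIS sEV (limma adjusted p = 0.372), but ZNG1 copies are nearly identical, so that their separate values are uncertain. METAP1 itself was at -0.05 there (limma adjusted p = 0.707).

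Copper is the other physiological metal of metallothioneins. All 11 copper-handling genes were tested and 0 passed in any comparison, with medians of 0.03, 0.00 and -0.00. SCO1, which helps to build the copper centre of cytochrome oxidase, had a log2 fold change of 0.19 in TIS sEV vs Cont sEV (SE 0.04, limma adjusted p = 0.215). CCS, the copper chaperone of superoxide dismutase, stood 0.20 higher (SE 0.07, limma adjusted p = 0.362). Iron-handling genes, 11 of 12 tested, had medians of 0.02, 0.02 and -0.00, and 0 had an unadjusted p under 0.05.

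Genes that respond to heavy metals and electrophiles, a list that includes HMOX1 and the HSPA1 heat shock genes, lay mostly above 0 against No sEV but not between the vesicle groups. All 12 were tested. In TIS sEV vs Cont sEV 7 had a higher and 5 a lower mean, with a median of 0.03 against 0.02 over all genes, and HMOX1 was at -0.10 (limma adjusted p = 0.578). Of the 12, 12 had a higher mean in Cont sEV and 11 in TIS sEV than in No sEV, with median log2 fold changes of 0.06 and 0.08 against 0.01 and 0.03 over all genes. Over all genes, 43.5% and 33.3% had a lower mean in these comparisons, so a higher mean was the more frequent direction in general. None of the 12 passed (limma), and 4 and 5 of them had an unadjusted p under 0.05, against 6.03% and 7.97% of all genes. HMOX1, encoding heme oxygenase, had a log2 fold change of 0.19 for Cont sEV against No sEV (SE 0.05, limma adjusted p = 0.728), and HSPA1A one of 0.18 for TIS sEV against No sEV (SE 0.04, limma adjusted p = 0.391). HSPA1A and HSPA1B are near-identical copies whose reads are hard to separate. The groups did not overlap for 5 of the 12 with Cont sEV and 6 with TIS sEV, all higher, where 6.72% and 11.3% of all genes were higher without overlap. Both comparisons share the No sEV libraries.

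Glucocorticoid-induced genes, of which 11 of 12 were tested, had medians of 0.01, 0.01 and -0.03 and 0 passing genes. The values of FKBP5 (0.13, SE 0.04, limma adjusted p = 0.366) and DUSP1 (0.11, SE 0.03, limma adjusted p = 0.227) were above 0 for TIS sEV against Cont sEV, while those of GLUL (-0.11, SE 0.04, limma adjusted p = 0.372) and NFKBIA (-0.06, SE 0.02, limma adjusted p = 0.396) were below it. These 4 genes had an unadjusted p under 0.05, 2 in each direction; NFKBIA was named after its value was seen. For TIS sEV against No sEV, DUSP1 (0.08, SE 0.03, limma adjusted p = 0.551) and FKBP5 (0.10, SE 0.04, limma adjusted p = 0.615) were above 0. They were the only 2 of the list with an unadjusted p under 0.05 there. TSC22D3, which encodes GILZ, was below 0 in that comparison (-0.11, SE 0.05, limma adjusted p = 0.649).

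**Figure D5:**
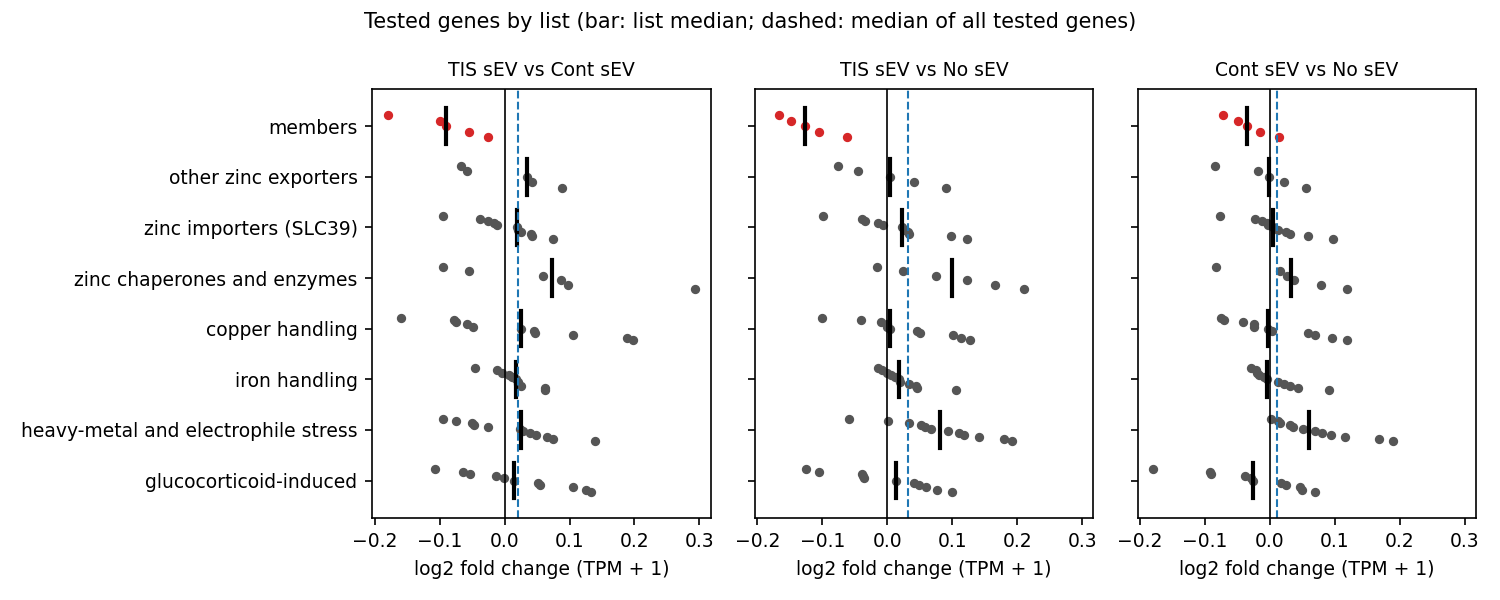
Log2 fold change on log2(TPM + 1) of the tested genes of the members (red) and of 7 lists of metal and stress genes in the 3 comparisons; the thick bar is the list median and the dashed line the median of all tested genes. In both comparisons of TIS sEV the members' median, -0.09 and -0.13, lies left of the dashed line, whereas the heavy-metal and electrophile list lies right of it against No sEV, at 0.08.

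Across the 9 libraries the members did not rise and fall as 1 block. Pearson's r of log2(TPM + 1) was 0.693 between MT2A and MT1E (Spearman's rho 0.700) and 0.52 without the 2 libraries farthest from the median of MT2A. Between MT2A and MT1X it was 0.547 (rho 0.583) and 0.292 without such libraries, and between MT1X and MT1E 0.668 (rho 0.567) and 0.839. The r of MT1X and SLC30A1 was 0.846 (rho 0.850) and 0.35 for deviations from the group means, so that much of it lay in the order of the groups. SLC30A1 and MTF1 had an r of 0.807 (rho 0.633), which was 0.943 for deviations from the group means but 0.398 without the 2 libraries farthest from the median of SLC30A1, so that it rested on those libraries. MT2A and MTF1 had an r of 0.14, and MT2A and MT1A one of 0.004. These correlations describe 9 libraries that share groups and scaling, and no test was made of them.

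The genes whose pattern was most like each member's were sought among 10478 other genes averaging 5 TPM or more, by Pearson's r over the 9 libraries. For MT2A they were ARL2 (0.945), FAM86C1P (0.925) and SLC20A2 (0.922), for MT1X SPANXA2 (0.974), RPS23 (0.949) and YIPF1 (0.91), and for MT1E NDUFA2 (0.951), SNRPD2 (0.944) and RPL18 (0.928). For SLC30A1 they were CTNNBIP1 (0.943), HSD17B12 (0.925) and GTF3C6 (0.883), and for MTF1 GRPEL2 (0.944), CNNM3 (0.942) and MOB1A (0.928). Each of these is the top of 10478 values over 9 libraries and was chosen for being high. SLC30A1 came 10th in likeness to MT1X, while for MT2A the nearest other member was MT1E, in 161st place.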

How the data were processed

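Gene expression of 9 MDA-MB-231 libraries in 3 groups of 3 was used as gene-level TPM deposited by the authors, with 60719 Ensembl genes. The submitters' processing notes name Salmon 1.4.0, DESeq2 1.28.0, Trim Galore 0.6.6 and FastQC 0.11.9, and GRCh38.p13 as the genome build. For the annotation, a release is not given in the sources. Read depth cannot be recovered from TPM, and no count model was used.

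The labels give each library's group and replicate number. Symbols were matched by Ensembl identifier (99.58% of genes). The 13879 genes that reached 1 TPM in 3 or more libraries were fitted with limma 3.58.1 in R 4.3.3 on log2(TPM + 1), which understates the fold changes of low genes. All 9 libraries entered 1 fit with a variance trend. Tests were two-sided, with Benjamini-Hochberg adjustment over all tested genes at 0.05, and the steps were tested on simulated data.

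Gene positions, transcript lengths and 31-base words come from GENCODE 29, which may differ from the authors' annotation, and promoters from RefSeq. The text names all 8 members, list genes of smallest p (up to 3 per list and comparison) and the genes nearest in pattern (up to 5 per member). The members and lists were chosen with earlier results of these data known. Alternatives were other pseudocounts, filters and scalings, the replicate block, a constant prior variance, library weights, the 6 libraries compared, and leaving out each library. Removal of length and GC trends was added after seeing the data (99.5% of tested genes had a value). Figures were drawn with matplotlib 3.10.9.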

Additional observations from a re-analysis of the deposited data

How the results depend on the processing

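The 15 log2 fold changes of the 5 tested members were recomputed under 21 other settings, and 0 passed in any of them (limma, lowest adjusted p = 0.2389, for MT1E in TIS sEV vs Cont sEV without TIS sEV replicate 1). In 12 of the 15 the direction held under all 21. MT2A in TIS sEV vs Cont sEV ran from -0.0781 to 0.0013 with 1 library left out, reversing without TIS sEV replicate 3. In Cont sEV vs No sEV, MT1E ran from -0.0297 to 0.0663 and MTF1 from -0.0671 to 0.0782 with 1 library left out, and MT1E was at -0.00979 with length and GC trends removed; the cause was not tested. The summed metallothionein level of Cont sEV moved from 5640 to 5818 TPM with mitochondrial genes left out. That of No sEV moved from 5795 to 5954 TPM and that of TIS sEV from 5509 to 5637 TPM. This rescaling raises every other gene.

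Counts over all genes were less stable than the members' calls. In TIS sEV vs Cont sEV, 13 became 2 with a constant prior variance and 3 with only the 6 libraries compared. With 1 library left out it ranged from 2 to 13: 2 when TIS sEV replicate 1 was dropped and 2 when Cont sEV replicate 2 was, 3 for Cont sEV replicate 3 and for No sEV replicate 3, 4 for TIS sEV replicate 2, 7 for TIS sEV replicate 3 and 8 for No sEV replicate 1. Higher and lower calls were 6 and 7, against 3 and 11 after median-of-ratios rescaling, 6 and 11 after quantile normalization and 3 and 9 with length and GC trends removed. In TIS sEV vs No sEV, 1 became 9 with no filter, 0 with a constant prior variance and 2 with only the 6 libraries compared, and ranged from 1 to 2 with 1 library left out (2 when replicate 2 of Cont sEV or replicate 2 or 3 of TIS sEV was dropped). In Cont sEV vs No sEV, 0 became 7 with no filter and 1 with at least 5 TPM in 3 libraries, and ranged from 0 to 1 with 1 library left out (1 without Cont sEV replicate 2).

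Libraries with the same replicate number deviated from their group means with correlations of -0.0479 to 0.0791, against -0.101 to 0.1 for other pairs. Of 9 libraries, 2 correlated best with their own number. The labels do not say what a shared number means. Such correlations cannot show whether same-numbered libraries were prepared together. With the replicate block, the count in TIS sEV vs Cont sEV was 9 (0 higher, 9 lower) and 0 members passed. Depth cannot be judged from TPM, and levels of MT1F, MT1G and MT1M are too low for comparison.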
